A study of Caenorhabditis elegans with 11 samples.

Results

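Polysome RNA of nematodes under xpo-1 RNAi was compared with polysome RNA of control nematodes, gene by gene. A gene entered the comparison with at least 10 counts in at least 2 of the 4 polysome libraries, and 13940 of the 46756 genes in the count tables did. The study sequenced polyadenylated RNA of wild-type N2 Bristol Caenorhabditis elegans on day 5 of adulthood. The xpo-1 RNAi group ate E. coli HT115 making double-stranded RNA against xpo-1, and the control group ate HT115 with the empty vector L4440. Both groups grew up on OP50 bacteria, were moved to the RNAi plates on day 1 of adulthood and stayed there for 96 hours at 20°C, with daily transfers in which adults were parted from progeny by settling. Worms were lysed in the presence of cycloheximide, which holds ribosomes on messenger RNA, and the heavy fractions of a sucrose gradient gave the polysome RNA. Each group had 2 polysome libraries, which the study's methods call biological replicates. Whole worms were lysed, so no tissue is set apart in these values, and the extent of silencing in each tissue is not known from them.

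XPO-1 (exportin 1, CRM1 in other animals) binds cargo with a nuclear export signal and carries it through the nuclear pore together with the GTPase Ran. Its cargo includes many proteins and the precursors of both ribosomal subunits. A messenger RNA in the polysome fraction carries several ribosomes, and such RNA is usually being translated. In C. elegans, messenger RNAs for ribosomal proteins and other parts of the translation machinery take a large part of all messages, and in adults yolk, eggshell and cuticle genes take another. The study saw flatter polysome peaks under xpo-1 RNAi. Every value below is therefore a share of the polysome RNA of its library, and a higher gene holds a larger share without necessarily more molecules.

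The libraries held 15589628 and 16676774 counts under xpo-1 RNAi and 19899590 and 16860796 counts in control. A floor of 3 counts in the shallowest library equals 0.192 CPM, which covers counting error only. Replicates of xpo-1 RNAi were closer to each other than the control replicates. The standard deviation over genes of the log2 ratio between replicates was 0.30 under xpo-1 RNAi and 0.58 in control (log2 CPM). Levels below are CPM, the counts of a gene per 1e+06 counts of its library after TMM scaling, which sets the library totals so that most genes do not differ.

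The silenced gene was checked in every library. On chromosome V of the WBcel235 build (7805064 to 7814656, plus strand), xpo-1 (gene ID WBGene00002078) had 22.4 and 22.7 CPM in xpo-1 RNAi polysome RNA, against 213 and 138 CPM in control. Its level was 22.5 ± 0.24 CPM under xpo-1 RNAi and 175 ± 53.5 CPM in control (SD, n = 2 each), or 12.8% of control. On the log2 scale it fell by 2.96 with an SE of 0.27 (adjusted p 0.000235 in edgeR). Both xpo-1 RNAi libraries lay far below both control libraries. In total RNA of the same design xpo-1 had 36.5 and 38.3 CPM under xpo-1 RNAi, against 313 and 254 CPM in control. Exons of xpo-1 overlap ZK742.3 and ZK742.6, and the double-stranded RNA itself matches the gene, so reads of other origin could not be set apart.

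The comparison asked which messages gained or lost their part of the polysome RNA when nuclear export was lowered. Of the 13940 genes, 5288 (37.9%) passed an edgeR adjusted p under 0.05 with a fold change over 1.5. Of these, 2161 (15.5%) were higher under xpo-1 RNAi and 3127 (22.4%) were lower. By fitted fold change the falls were the larger changes. Their median log2 fold change was -1.81, and 684 of them passed 16-fold, while the median of the rises was 1.11 and 25 passed 16-fold. Of the lower calls, 473 were at the floor under xpo-1 RNAi, and 63 of the higher calls were at the floor in control. The fitted fold change of such genes has no firm size. The medians and the 16-fold counts were not repeated without them. The genes called lower held 25.8% and 27.1% of the counts in the xpo-1 RNAi libraries, against 54.7% and 60.3% in the control libraries. The genes called higher held 28.9% and 27.5% of the counts under xpo-1 RNAi, against 10.9% and 8.7% in control. Each of the 5288 called genes kept its sign when any 1 library was left out. Genes called from these same libraries can hardly do otherwise, so this is no separate support. Both xpo-1 RNAi libraries lay above both control libraries in 4909 of the 13940 genes and below both in 5216. Groups that do not overlap were thus common among all genes. The count of calls depended on the libraries. Without xpo-1 RNAi replicate 1 there were 640 higher and 1640 lower calls, without xpo-1 RNAi replicate 2 there were 725 and 1802, and without control replicate 1 there were 3255 and 3765. A lone xpo-1 RNAi library was assumed in these fits to vary like the control libraries. Scaling by library totals alone gave 4503 higher and 2209 lower calls and moved the median over all genes to 0.40, against -0.01 with TMM (log2). Family medians are given on the TMM scale, and where the shift by library totals turned a sign this is said beside the value. Counts of calls in a family are to be read beside the shares of all genes, 15.5% higher and 22.4% lower. In whole worms, fewer cells of a type and less RNA per cell cannot be told apart.

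**Figure D1:**
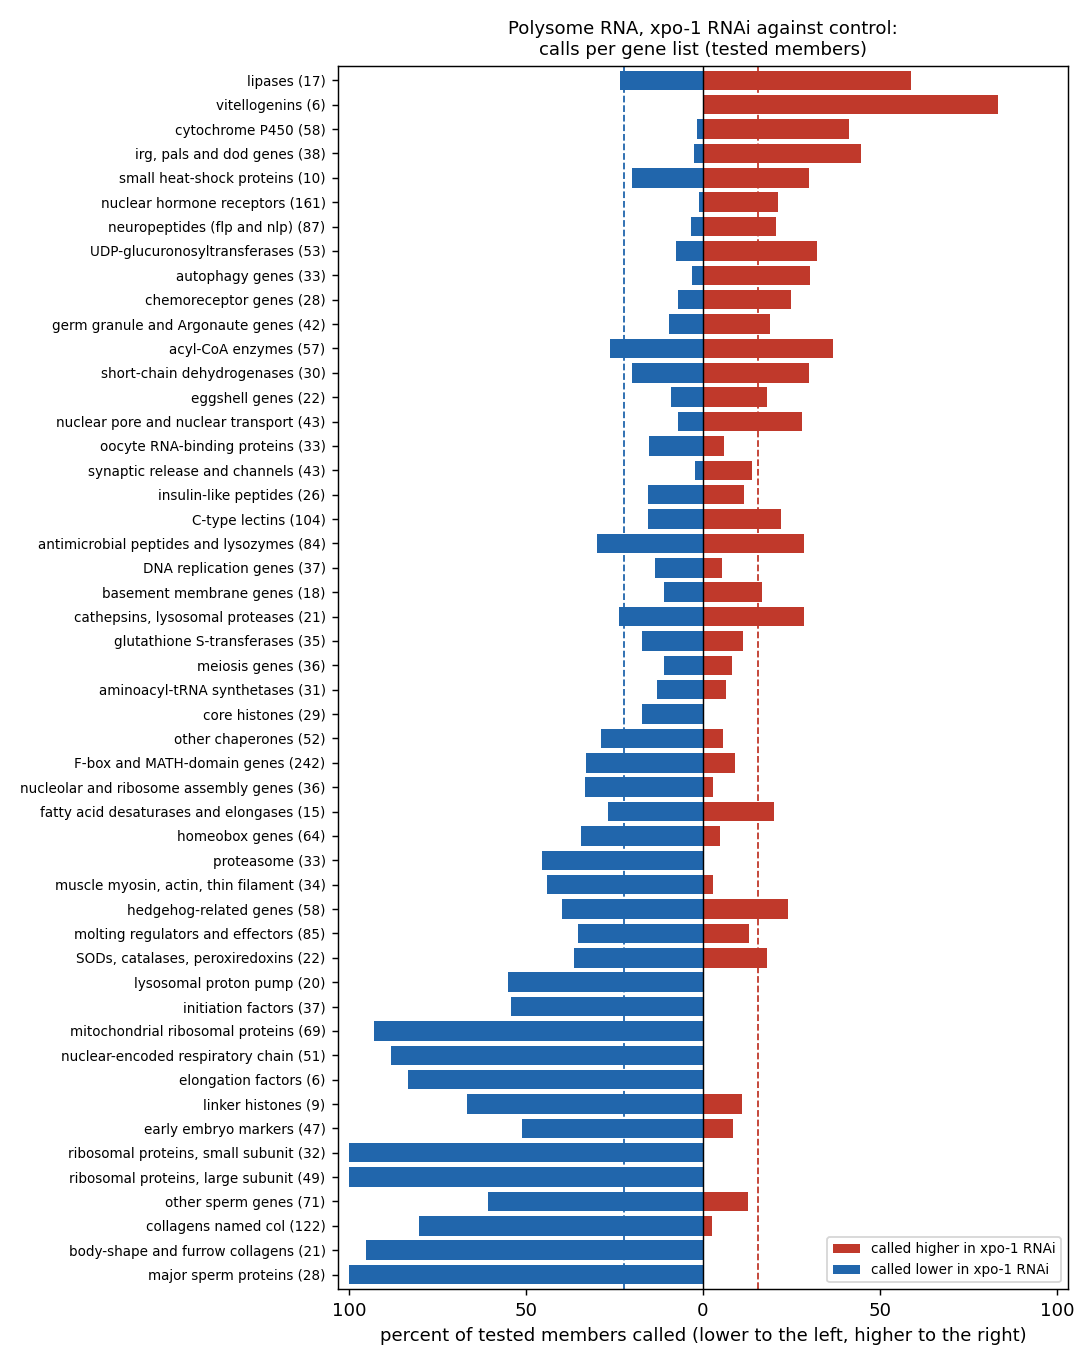
Percent of the tested members of 50 gene lists called lower (blue, to the left) or higher (red, to the right) in xpo-1 RNAi polysome RNA against control, ordered by median log2 fold change, with the number tested in brackets. Dashed lines mark the share among all genes, 15.5% higher and 22.4% lower. All tested ribosomal and major sperm proteins were called lower, and 5 of 6 vitellogenins and 10 of 17 lipases were called higher.

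Cytosolic ribosomal proteins fell as a group and without exception. All 49 tested proteins of the large subunit and all 32 of the small subunit were called lower, against 22.4% of all genes. The median log2 fold change was -1.80 for the large subunit (range -3.12 to -0.80) and -1.78 for the small subunit (range -2.85 to -1.31). Large-subunit genes together took 5.13% and 5.31% of polysome counts under xpo-1 RNAi, against 12.5% and 13.3% in control. Small-subunit genes took 3.67% and 3.86% under xpo-1 RNAi, against 9.52% and 10.3% in control. The groups were far apart and replicates close. All 81 calls were also made without either xpo-1 RNAi library.

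Within the ribosome the size of the fall differed from protein to protein. rpl-38 (WBGene00004452, chromosome V, 15512166 to 15512780), which encodes the large-subunit protein L38, had 387 and 406 CPM in xpo-1 RNAi polysome RNA, against 3148 and 3761 CPM in control, which is -3.12 as log2 fold change (SE 0.18, adjusted p 0.000151). rps-12, of the small subunit, had 312 and 336 CPM under xpo-1 RNAi, against 2299 and 2358 CPM in control (log2 fold change -2.85, SE 0.17, adjusted p 0.000151). At the other end stood rpl-4, with 2560 and 2902 CPM under xpo-1 RNAi and 5179 and 4311 CPM in control (log2 fold change -0.80, SE 0.16, adjusted p 0.0053). In each of these the groups did not overlap. Scaled by library totals alone, rpl-4 had a log2 fold change of -0.39 and was not called. Of the pair of genes for the large-subunit protein RPL-11, rpl-11.1 had 1142 and 1183 CPM under xpo-1 RNAi, against 3039 and 3326 CPM in control, which is -1.45 as log2 fold change (SE 0.15, adjusted p 0.000405). rpl-11.2 had 87.2 and 111 CPM under xpo-1 RNAi, against 351 and 666 CPM in control, which is -2.36 as log2 fold change (SE 0.31, adjusted p 0.000878). Both copies fell, and how reads shared by such near-identical copies were counted is not given in the sources used here. Exons of rpl-38 and rpl-4 overlap other genes (lgc-31 and lmd-2).

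**Figure D2:**
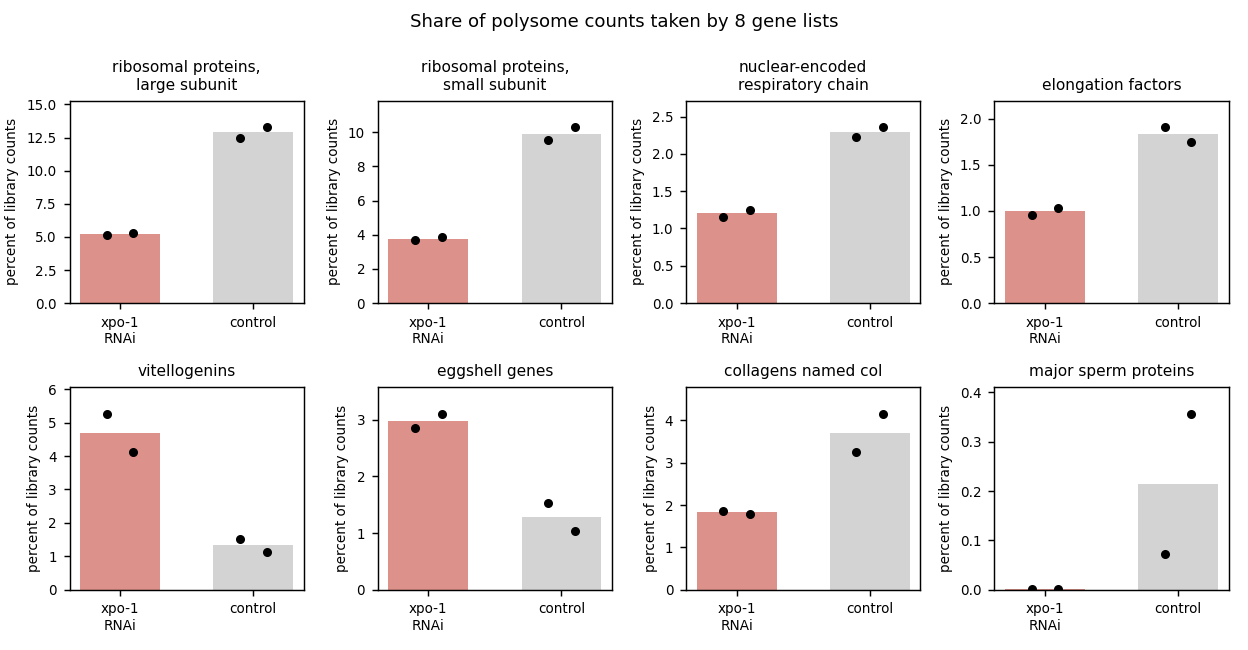
Percent of all counts of a polysome library taken by 8 gene lists. Points are the 2 libraries of each group and bars their mean, with xpo-1 RNAi in red on the left and control in grey on the right, and each panel has its own axis from 0. Ribosomal proteins, respiratory chain, elongation factors, collagens and major sperm proteins took less under xpo-1 RNAi, and vitellogenins (5.27% and 4.12% against 1.53% and 1.12%) and eggshell genes took more.

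Factors that act on the ribosome fell less evenly. Elongation factors, which bring transfer RNA to the ribosome and move it along the message, were called lower in 5 of 6 genes (median log2 fold change -1.53). eef-1A.1, which delivers aminoacyl-tRNA, had 4535 and 5012 CPM under xpo-1 RNAi, against 12740 and 9992 CPM in control (log2 fold change -1.25, SE 0.16, adjusted p 0.000766). eef-1B.1, part of its nucleotide exchange factor, had 290 and 343 CPM under xpo-1 RNAi, against 1996 and 2312 CPM in control (log2 fold change -2.77, SE 0.19, adjusted p 0.000151). The groups did not overlap in either gene. eef-2, the translocation factor, had a log2 fold change of -0.72 (adjusted p 0.00793), and its call was lost without xpo-1 RNAi replicate 1 (adjusted p 0.0578) and with scaling by library totals. Initiation factors were called lower in 20 of 37 genes and higher in 0 (median -0.73), and with library totals 9 were called lower and 4 higher. iff-1, a germline form of eIF5A, had 469 and 520 CPM under xpo-1 RNAi, against 2199 and 2633 CPM in control (log2 fold change -2.29, adjusted p 0.000156). ifg-1, the eIF4G scaffold, had 206 and 162 CPM under xpo-1 RNAi, against 148 and 126.2 CPM in control, and did not pass (log2 fold change 0.43, adjusted p 0.146), although it did with library totals (log2 fold change 0.84, adjusted p 0.0125). The number of initiation factors called lower was 6 without xpo-1 RNAi replicate 1 and 11 without xpo-1 RNAi replicate 2.

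The enzymes that charge transfer RNA stood apart from the ribosome. Of 31 aminoacyl-tRNA synthetases 2 were called higher and 4 lower, both below the share among all genes, and their median log2 fold change was -0.16, or 0.25 with library totals. cars-1, the cysteinyl-tRNA synthetase, had 260 and 281 CPM under xpo-1 RNAi, against 167 and 153 CPM in control (log2 fold change 0.76, adjusted p 0.0131). kars-1, the lysyl-tRNA synthetase, had 355 and 403 CPM under xpo-1 RNAi, against 691 and 601 CPM in control (log2 fold change -0.77, adjusted p 0.0111). In both the groups did not overlap, but no synthetase was called without either xpo-1 RNAi library, where the adjusted p of cars-1 was 0.11 and 0.158 and that of kars-1 was 0.131 and 0.0622. With library totals kars-1 was not called (log2 fold change -0.36). Exons of cars-1 overlap Y23H5A.2.

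Genes of the nucleolus, where ribosomal RNA is made and the subunits are put together, were called lower in 12 of 36 and higher in 1. The lower calls were 33.3% of the list, against 22.4% of all genes. Their median log2 fold change was -0.37, or 0.04 with library totals. fib-1 (WBGene00001423, chromosome V, 15000653 to 15002273), the ribosomal RNA methyltransferase fibrillarin, had 575 and 664 CPM under xpo-1 RNAi, against 1876 and 2149 CPM in control (log2 fold change -1.70, SE 0.17, adjusted p 0.000357), the largest fall of the list. dkc-1, the pseudouridine synthase dyskerin, had 192 and 214 CPM under xpo-1 RNAi, against 401 and 405 CPM in control (log2 fold change -0.99, adjusted p 0.00367). Both control libraries were above both xpo-1 RNAi libraries for each. ncl-1, a TRIM-NHL protein known to restrain nucleolar size, went the other way with 39.9 and 45.5 CPM under xpo-1 RNAi, against 28 and 21.4 CPM in control (log2 fold change 0.79, adjusted p 0.022). The call of ncl-1 was lost without either xpo-1 RNAi library (adjusted p 0.112 and 0.196), and that of dkc-1 without xpo-1 RNAi replicate 1 (adjusted p 0.0706). Without either xpo-1 RNAi library 4 genes of the list were called lower. Exons of ncl-1 overlap another annotated gene.

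Nuclear pore and transport genes leaned up, with 12 of 43 called higher and 3 lower (median log2 fold change 0.32), xpo-1 itself being among the 3. The higher calls were 27.9% of the list, against 15.5% of all genes. npp-3, a large inner-ring nucleoporin, had 238 and 227 CPM under xpo-1 RNAi, against 128 and 77.9 CPM in control (log2 fold change 1.18, SE 0.26, adjusted p 0.00777). ran-1, the GTPase that XPO-1 works with, had 528 and 560 CPM under xpo-1 RNAi, against 1088 and 1002 CPM in control (log2 fold change -0.94, adjusted p 0.00305, exons overlapping rib-2), and with library totals it was not called (log2 fold change -0.53). The groups were apart in both. The nucleoporin npp-2 had 130 and 144 CPM under xpo-1 RNAi, against 140 and 117 CPM in control, with the groups overlapping (log2 fold change 0.09, adjusted p 0.752). This list had 0 higher calls without xpo-1 RNAi replicate 1, 1 without xpo-1 RNAi replicate 2 and 22 without control replicate 1. The call of npp-3 was lost without either xpo-1 RNAi library (adjusted p 0.0698 and 0.0527).

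Mitochondria make a small number of their proteins on ribosomes of their own, and all other parts of these ribosomes and of the respiratory chain come from nuclear genes. Mitochondrial ribosomal proteins were called lower in 64 of 69 genes and higher in 0, with a median log2 fold change of -1.21. Their share of counts was 0.234% and 0.238% under xpo-1 RNAi, against 0.375% and 0.447% in control. mrps-21 had 11.6 and 14.1 CPM under xpo-1 RNAi, against 50.4 and 66.1 CPM in control (log2 fold change -2.18, SE 0.24, adjusted p 0.000446). mrpl-44 had 194 and 225 CPM under xpo-1 RNAi, against 262 and 332 CPM in control, without passing (log2 fold change -0.51, adjusted p 0.0821), although it did without control replicate 1 (log2 fold change -0.66, adjusted p 0.000695). The log2 fold change of all 69 genes was below 0. The number of calls was 37 without xpo-1 RNAi replicate 1 and 43 without xpo-1 RNAi replicate 2.

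The nuclear-encoded respiratory chain was called lower in 45 of 51 genes and higher in 0, with a median log2 fold change of -1.29. The list took 1.16% and 1.25% of counts under xpo-1 RNAi, against 2.22% and 2.36% in control. atp-2, the beta subunit of the ATP synthase, had 928 and 994 CPM under xpo-1 RNAi, against 3062 and 2364 CPM in control (log2 fold change -1.50, SE 0.18, adjusted p 0.000612). cox-6A, a subunit of cytochrome c oxidase, had 219 and 228 CPM under xpo-1 RNAi, against 525 and 656 CPM in control (log2 fold change -1.40, adjusted p 0.00105). Control libraries were above xpo-1 RNAi libraries throughout. The largest fall of the list was in cyc-2.2, a cytochrome c gene, with 0.163 and 0.214 CPM under xpo-1 RNAi, against 4.27 and 20.3 CPM in control (log2 fold change -5.97, adjusted p 0.00124). Its 2 control libraries differed widely, and without control replicate 2 its log2 fold change was -4.44. The list had 31 lower calls without xpo-1 RNAi replicate 1. Of 11 tested genes on the mitochondrial chromosome 4 were called lower and 0 higher, with a median log2 fold change of -0.77.

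Protein turnover split by system. The proteasome, which breaks down ubiquitin-tagged proteins, was called lower in 15 of 33 genes and higher in 0 (median log2 fold change -0.48). With library totals the median was negative as well, but 7 genes were called lower and 4 higher. pas-5, of the outer ring of the core, had 206 and 253 CPM under xpo-1 RNAi, against 674 and 630 CPM in control (log2 fold change -1.51, SE 0.19, adjusted p 0.000749). pbs-5, a catalytic subunit, had 412 and 502 CPM under xpo-1 RNAi, against 1069 and 914 CPM in control (log2 fold change -1.12, adjusted p 0.00242). The groups did not overlap in either gene. The regulatory particle genes rpn-6.1 and rpn-10 had log2 fold changes of -0.23 and -0.19 and did not pass (adjusted p 0.383 and 0.453), and with library totals both were above 0 (0.18 and 0.22). Exons of rpn-10 overlap B0205.12. F-box, MATH-domain and Skp1-related genes, a large nematode family of adaptors that choose targets for ubiquitin, had 80 lower and 22 higher calls among 242, or 66 and 59 with library totals. The lower calls were uneven within the family, with 50 of 65 fbxb genes called lower and 0 higher, against 3 lower and 13 higher of 85 fbxa genes. skr-8, a Skp1-related gene, had 8.30 and 8.83 CPM under xpo-1 RNAi, against 36.9 and 31.9 CPM in control (log2 fold change -2.0, adjusted p 0.000427). Without xpo-1 RNAi replicate 1 the proteasome list had 5 lower calls and the F-box list 36 lower and 3 higher. With replicate 2 left out in its place, these were 9, 40 and 4.

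Autophagy genes, which build the membrane that takes cell material to the lysosome, had 10 of 33 called higher and 1 lower (median log2 fold change 0.40). The higher calls were 30.3% of the list, against 15.5% of all genes. sqst-1, the p62 receptor that binds ubiquitin-tagged cargo, had 98.5 and 93.6 CPM under xpo-1 RNAi, against 28.3 and 24.9 CPM in control (log2 fold change 1.85, SE 0.21, adjusted p 0.000498). lgg-1, the GABARAP protein that coats the autophagosome, had 1052 and 1139 CPM under xpo-1 RNAi, against 733 and 708 CPM in control (log2 fold change 0.61, SE 0.16, adjusted p 0.0191). bec-1, the Beclin 1 gene, had 36.9 and 50.8 CPM under xpo-1 RNAi, against 34.8 and 25 CPM in control (log2 fold change 0.55, adjusted p 0.115). All xpo-1 RNAi values of these were above the control values, and bec-1 did not pass, although it did without control replicate 1 (log2 fold change 0.82, adjusted p 0.000824) and with library totals (log2 fold change 0.96, adjusted p 0.0138). epg-2, a nematode adaptor for clearing germ granule proteins from embryos, had 20.9 and 18.3 CPM under xpo-1 RNAi, against 46.2 and 57.4 CPM in control (log2 fold change -1.40, adjusted p 0.0017, exons overlapping tpxl-1). The call of lgg-1 was lost without either xpo-1 RNAi library (adjusted p 0.0889 and 0.148) and with at least 10 counts required in every library (log2 fold change 0.55), and the list had 2 higher calls without xpo-1 RNAi replicate 1 and 4 without replicate 2.

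The lysosomal proton pump fell, with 11 of 20 subunit genes called lower and 0 higher (median log2 fold change -0.71). With library totals 4 were called lower and 1 higher. vha-2, a membrane ring subunit, had 408 and 498 CPM under xpo-1 RNAi, against 1020 and 999 CPM in control (log2 fold change -1.16, SE 0.18, adjusted p 0.0017). Of 21 lysosomal proteases 6 (28.6%) were called higher and 5 (23.8%) lower, against 15.5% and 22.4% of all genes. The share called lower was thus near that of all genes. cpr-5, a cathepsin B-like protease, had 417 and 531 CPM under xpo-1 RNAi, against 1352 and 1550 CPM in control (log2 fold change -1.62, adjusted p 0.000587). cpr-2, of the same family, had 4.50 and 4.33 CPM under xpo-1 RNAi, against 0.644 and 0.406 CPM in control (log2 fold change 3.04, adjusted p 0.00104). The groups were apart in all of these. The pump list had 4 lower calls and the protease list 3 higher calls without xpo-1 RNAi replicate 1, and these were 5 and 2 without replicate 2.

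Chaperones did not change as 1 group. Of 10 small heat-shock proteins, which hold unfolding proteins, 3 (30%) were called higher and 2 (20%) lower, against 15.5% and 22.4% of all genes. hsp-16.2 had 7.43 and 10.1 CPM under xpo-1 RNAi, against 4.04 and 3.52 CPM in control (log2 fold change 1.21, adjusted p 0.0118), a call lost without either xpo-1 RNAi library (adjusted p 0.0559 and 0.177). hsp-12.1 had 3.15 and 2.84 CPM under xpo-1 RNAi, against 13.5 and 24.1 CPM in control (log2 fold change -2.65, adjusted p 0.000735). The heat-shock genes of the hsp-16 family have near-identical copies, so reads may be shared between them. Of 52 other chaperones 15 (28.8%, against 22.4% of all genes) were called lower and 3 higher (median -0.24, or 0.17 with library totals). The cct genes, which encode the cytosolic chaperonin, moved together, with all 8 called lower (median -0.88). hsp-60, the mitochondrial chaperonin, had 124 and 157 CPM under xpo-1 RNAi, against 416 and 437 CPM in control (log2 fold change -1.60, SE 0.20, adjusted p 0.000743). hsp-90, the cytosolic chaperone, had 1047 and 1369 CPM under xpo-1 RNAi, against 2889 and 3294 CPM in control (log2 fold change -1.36, adjusted p 0.00096, exons overlapping C47E8.4). Control libraries were above xpo-1 RNAi libraries in both. Leaving out xpo-1 RNAi replicate 1 or 2 left 6 or 9 lower calls among the other chaperones.

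Antioxidant enzymes also went both ways, with 4 (18.2%) higher and 8 (36.4%) lower of 22 superoxide dismutases, catalases and peroxidases. Among all genes these shares were 15.5% and 22.4%. ctl-1, the cytosolic catalase, had 24.7 and 36 CPM under xpo-1 RNAi, against 8.25 and 7.25 CPM in control (log2 fold change 1.97, SE 0.26, adjusted p 0.000825). prdx-2, a peroxiredoxin, had 515 and 583 CPM under xpo-1 RNAi, against 1259 and 1176 CPM in control (log2 fold change -1.15, adjusted p 0.00137). The groups did not overlap in either. Lower calls numbered 1 without xpo-1 RNAi replicate 1 and 3 without xpo-1 RNAi replicate 2.

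Detoxification genes were among the families that gained a larger share. Cytochrome P450 enzymes, which oxidise foreign and lipid compounds, were called higher in 24 of 58 genes (41.4%, against 15.5% of all genes) and lower in 1, with a median log2 fold change of 0.99. Their summed share was 0.109% and 0.114% of counts under xpo-1 RNAi, against 0.0567% and 0.0418% in control. cyp-35A2, an intestinal P450 gene, had 108 and 119 CPM under xpo-1 RNAi, against 54.7 and 36.5 CPM in control (log2 fold change 1.32, SE 0.24, adjusted p 0.0038). The exception was cyp-31A5, with 32.9 and 37.9 CPM under xpo-1 RNAi, against 79.1 and 60.6 CPM in control (log2 fold change -0.98, adjusted p 0.00926), whose exons overlap Y62E10A.19 and whose call was lost without either xpo-1 RNAi library (adjusted p 0.146 and 0.0769) and with library totals (log2 fold change -0.57). UDP-glucuronosyltransferases, which attach sugars to such compounds, were called higher in 17 of 53 genes and lower in 4 (median 0.43). ugt-4 (WBGene00013905, chromosome V, 12793020 to 12795336) had 13.1 and 16.16 CPM under xpo-1 RNAi, against 1.29 and 1.36 CPM in control (log2 fold change 3.47, SE 0.29, adjusted p 0.000198). The groups were far apart in ugt-4. The P450 list had 7 higher calls without xpo-1 RNAi replicate 1 and 8 without replicate 2, and the transferase list had 9 and 10.

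Of 35 glutathione S-transferases 4 (11.4%) were called higher and 6 (17.1%) lower, both below the shares of all genes. Their median log2 fold change was -0.10, or 0.30 with library totals. gst-24 had 50.2 and 54.7 CPM under xpo-1 RNAi, against 13.3 and 8.60 CPM in control (log2 fold change 2.25, SE 0.26, adjusted p 0.000527). gst-27 had 12.9 and 15.5 CPM under xpo-1 RNAi, against 47.5 and 86 CPM in control (log2 fold change -2.23, SE 0.31, adjusted p 0.00103). Short-chain dehydrogenases, oxidoreductases with many substrates, had 9 (30%) higher and 6 (20%) lower of 30 (median log2 fold change 0.32). Among all genes these shares were 15.5% and 22.4%. dhs-26 had 219 and 229 CPM under xpo-1 RNAi, against 60.3 and 24.7 CPM in control (log2 fold change 2.40, SE 0.38, adjusted p 0.00182). dhs-25 (WBGene00000988, chromosome X, 1486473 to 1489326) had 28.2 and 35 CPM under xpo-1 RNAi, against 295 and 393 CPM in control (log2 fold change -3.44, SE 0.25, adjusted p 0.000151). The groups did not overlap in any of these. With xpo-1 RNAi replicate 1 left out, dehydrogenases and transferases each had 3 higher calls and 1 lower call.

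Lipases, which release fatty acids from stored and taken-up fat, were called higher in 10 of 17 genes and lower in 4, with a median log2 fold change of 1.40. lips-11 (WBGene00020472, chromosome II, 1108841 to 1110992) had 23.6 and 28.8 CPM under xpo-1 RNAi, against 0.585 and 0.474 CPM in control, the largest rise among genes with a mean of at least 10 CPM. Its log2 fold change was 5.60 (SE 0.31, adjusted p 0.000151). fil-1, a lipase named for its induction by fasting, had 18 and 19.4 CPM under xpo-1 RNAi, against 1.76 and 0.881 CPM in control (log2 fold change 3.80, SE 0.34, adjusted p 0.000235). Its relative fil-2 had 82 and 78 counts in the xpo-1 RNAi libraries, against 1 and 0 counts in the control libraries (adjusted p 0.000343). lipl-5, a lysosomal lipase, had 667 and 797 CPM under xpo-1 RNAi, against 220 and 334 CPM in control (log2 fold change 1.40, adjusted p 0.00246). Among those that fell, lips-9 had 0.380 and 0.214 CPM under xpo-1 RNAi, against 2.11 and 2.91 CPM in control (log2 fold change -3.05, adjusted p 0.00281). Control and xpo-1 RNAi libraries were apart for each lipase named, which the choice of lips-11 and fil-1 by fold change required.

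Enzymes that make and burn fatty acids were divided. Acyl-CoA synthetases, dehydrogenases and their carnitine partners had 21 higher and 15 lower calls among 57 (median log2 fold change 0.33). By name, 11 of 19 acs genes (synthetases) were called higher and 3 lower. Of 13 acdh genes (dehydrogenases) 1 was called higher and 9 lower (69.2%, against 22.4% of all genes, median -1.34). The members named next both rose. acs-13, an acyl-CoA synthetase, had 840 and 927 CPM under xpo-1 RNAi, against 614 and 401 CPM in control (log2 fold change 0.80, adjusted p 0.0229). cpt-3, a carnitine palmitoyltransferase, had 6.84 and 6.90 CPM under xpo-1 RNAi, against 1.58 and 0.881 CPM in control (log2 fold change 2.46, adjusted p 0.0015). In both the xpo-1 RNAi libraries were above the control libraries. Of 15 desaturases and elongases 3 were called higher and 4 lower. fat-5, a delta-9 desaturase, had 288 and 410 CPM under xpo-1 RNAi, against 139 and 88.2 CPM in control (log2 fold change 1.62, adjusted p 0.00266, exons overlapping twk-42). elo-1, an elongase of long polyunsaturated fatty acids, had 112 and 134 CPM under xpo-1 RNAi, against 224 and 324 CPM in control (log2 fold change -1.15, adjusted p 0.00584), a call lost without xpo-1 RNAi replicate 1 (adjusted p 0.0866). The call of acs-13 was lost without control replicate 2 (log2 fold change 0.54) and without either xpo-1 RNAi library (adjusted p 0.0798 and 0.131). The acyl-CoA list had 11 higher calls without xpo-1 RNAi replicate 1 and 10 without replicate 2.

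Vitellogenins, the yolk proteins that the intestine makes for the oocytes, gained more of the polysome counts than any other of the 50 lists. They took 5.27% and 4.12% of counts under xpo-1 RNAi, against 1.53% and 1.12% in control, and 5 of 6 were called higher. vit-5 (WBGene00006929, chromosome X, 3403471 to 3408603) had 15460 and 12330 CPM under xpo-1 RNAi, against 5075 and 3060 CPM in control (log2 fold change 1.77, SE 0.24, adjusted p 0.000933). vit-2 had 12980 and 9986 CPM under xpo-1 RNAi, against 4855 and 3482 CPM in control (log2 fold change 1.46, SE 0.20, adjusted p 0.00102). vit-6 rose by 1.36 (SE 0.17, adjusted p 0.000662) on the log2 scale, and none of these overlapped between groups. Yolk genes have similar copies, so reads may be shared among them. The median of the 6 genes on the log2 scale was 1.13 in polysome RNA and 0.09 in total RNA. All 6 had an unadjusted interaction p under 0.05, with 0 passing adjustment, in an edgeR fit that did not pair libraries by lysate. Of 7 intestinal marker genes, vit-2, vit-6 and the esterase ges-1 (92.5 and 96.6 CPM under xpo-1 RNAi, against 25.5 and 27.2 CPM in control) were called higher and the protease asp-1 lower (915 and 1198 CPM under xpo-1 RNAi, against 2448 and 3308 CPM in control). The intestinal regulator elt-2 had 19.6 and 18.7 CPM under xpo-1 RNAi, against 15.8 and 19 CPM in control, with the groups overlapping. The part of intestinal RNA content in these results was not tested.

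Eggshell genes took 2.86% and 3.11% of counts under xpo-1 RNAi, against 1.54% and 1.03% in control. Of 22 eggshell genes 4 (18.2%, near the 15.5% of all genes) were called higher and 2 (9.09%) lower. perm-4, needed for the permeability barrier of the egg, had 6478 and 7952 CPM under xpo-1 RNAi, against 3116 and 1910 CPM in control (log2 fold change 1.52, SE 0.23, adjusted p 0.00167). perm-2, of the same layer, had 5675 and 6363 CPM under xpo-1 RNAi, against 3349 and 2169 CPM in control (log2 fold change 1.13, SE 0.21, adjusted p 0.00392). cpg-2, an eggshell proteoglycan, had 4225 and 5156 CPM under xpo-1 RNAi, against 3382 and 2149 CPM in control (log2 fold change 0.76, SE 0.22, adjusted p 0.0267), a call lost without control replicate 2 (log2 fold change 0.49) and without xpo-1 RNAi replicate 2 (adjusted p 0.126). cpg-9 had 49.8 and 46.6 CPM under xpo-1 RNAi, against 151.2 and 336 CPM in control (log2 fold change -2.34, adjusted p 0.00155), and was the largest fall of the list. The list median was 0.08 with 2 higher calls without control replicate 2, and 0.73 with 12 higher calls without control replicate 1. ule-1 and ule-4, genes of the uterine lumen, rose by 1.44 (adjusted p 0.00273, exons overlapping W03F11.5) and 0.77 (adjusted p 0.00694) on the log2 scale. In each gene named here the xpo-1 RNAi libraries lay on 1 side of the control libraries.

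**Figure D3:**
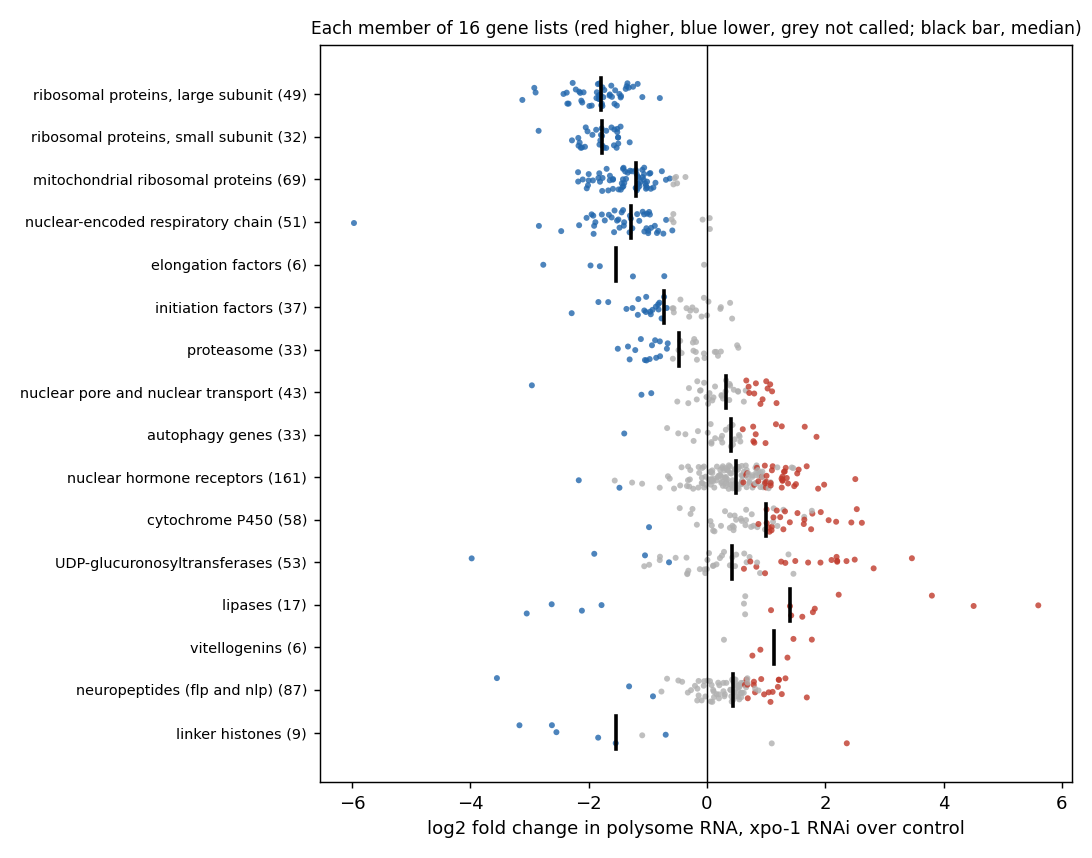
Log2 fold change in polysome RNA (xpo-1 RNAi over control) of every tested member of 16 gene lists. Each point is a gene, red where called higher, blue where called lower and grey where not called, black bars are medians, and a gene at or under 3 counts in every library of a group is drawn at its bound. Ribosomal proteins lie wholly below 0 with medians of -1.80 and -1.78, while P450 genes centre on 0.99 and lipases lie on both sides.

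Genes of the immune and stress response were mixed by family. The irg, pals and dod genes, which answer to pathogens or to DAF-16, were called higher in 17 of 38 and lower in 1 (median log2 fold change 0.82). pals-14 had 8.36 and 5.08 CPM under xpo-1 RNAi, against 0.293 and 0.271 CPM in control (log2 fold change 4.54, SE 0.46, adjusted p 0.000358). dod-3 had 528 and 645 CPM under xpo-1 RNAi, against 165 and 76.9 CPM in control (log2 fold change 2.28, SE 0.34, adjusted p 0.00148). In both the groups were apart. dod-18 was the exception, with 10.3 and 9.74 CPM under xpo-1 RNAi, against 17.3 and 16.9 CPM in control (log2 fold change -0.77, adjusted p 0.023, exons overlapping C54G4.7), a call lost without either xpo-1 RNAi library (adjusted p 0.185 and 0.217) and with library totals (log2 fold change -0.36). C-type lectins, secreted sugar-binding proteins, were called higher in 22.1% and lower in 15.4%, or 23 and 16 genes. Antimicrobial peptides, saposins and lysozymes had 24 (28.6%) higher and 25 (29.8%) lower of 84. Among all genes these shares were 15.5% and 22.4%. fipr-22, a small peptide gene, had 12.3 and 16.16 CPM under xpo-1 RNAi, against 1.87 and 1.36 CPM in control (log2 fold change 3.13, adjusted p 0.000337), while fipr-8 had 0 and 0 counts under xpo-1 RNAi, against 31 and 79 counts in control, at least 22.2-fold lower against a floor of 3 counts per library. spp-14, a saposin-like protein, had 1541 and 1786 CPM under xpo-1 RNAi, against 986 and 746 CPM in control (log2 fold change 0.94, adjusted p 0.00564). fipr genes have close copies, and reads may be shared among them. Leaving out xpo-1 RNAi replicate 1 gave 6 higher calls among irg, pals and dod genes, 13 among lectins and 13 among antimicrobial peptides, and leaving out replicate 2 gave 10, 10 and 13.

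Nuclear hormone receptors and homeobox genes, both families of transcription factors, differed in the direction of most calls. Of 161 nuclear hormone receptors, a large nematode family of ligand-bound transcription factors, 34 (21.1%) were called higher and 2 lower (median log2 fold change 0.50). Among all genes 15.5% were called higher and 22.4% lower. nhr-49, a regulator of fat use, had 97.0 and 91.3 CPM under xpo-1 RNAi, against 49.4 and 37.7 CPM in control (log2 fold change 1.11, SE 0.22, adjusted p 0.0049). nhr-114 had 8.46 and 8.13 CPM under xpo-1 RNAi, against 32.7 and 42 CPM in control (log2 fold change -2.17, adjusted p 0.000394). The groups did not overlap in either gene. Of 64 homeobox genes, mostly factors of development, 22 (34.4%) were called lower and 3 (4.69%) higher (median -0.47). With at least 10 counts required in every library their median was 0.04. With library totals 15 were called lower and 11 higher. ceh-51, an early mesoderm factor, had 1 and 0 counts under xpo-1 RNAi, against 57 and 79 counts in control (adjusted p 0.000442). With xpo-1 RNAi replicate 1 left out, 9 receptors were higher and 11 homeobox genes lower, and the call of nhr-49 was lost (adjusted p 0.0678).

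The transcription factors linked to long life in this organism were read beside these. hlh-30 (WBGene00020930, chromosome IV, 4014799 to 4028127), the worm TFEB that drives autophagy and lysosome genes, had 108 and 99.0 CPM under xpo-1 RNAi, against 61.1 and 43 CPM in control (log2 fold change 0.99, SE 0.23, adjusted p 0.0107). daf-16, the FOXO factor of insulin signalling, had 123.3 and 117 CPM under xpo-1 RNAi, against 68.2 and 49.5 CPM in control (log2 fold change 1.03, SE 0.22, adjusted p 0.00777). hsf-1, the heat-shock factor, had 69.7 and 61.2 CPM under xpo-1 RNAi, against 43 and 29.1 CPM in control (log2 fold change 0.86, SE 0.24, adjusted p 0.0231). Each was above control in both xpo-1 RNAi libraries. All 3 calls were lost without either xpo-1 RNAi library, with adjusted p from 0.0688 (daf-16) to 0.187 (hsf-1). In total RNA hlh-30 had 57.2 and 63.4 CPM under xpo-1 RNAi, against 68.9 and 86.6 CPM in control, and the log2 fold changes of daf-16 and hsf-1 there were -0.01 and 0.13.

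**Figure D4:**
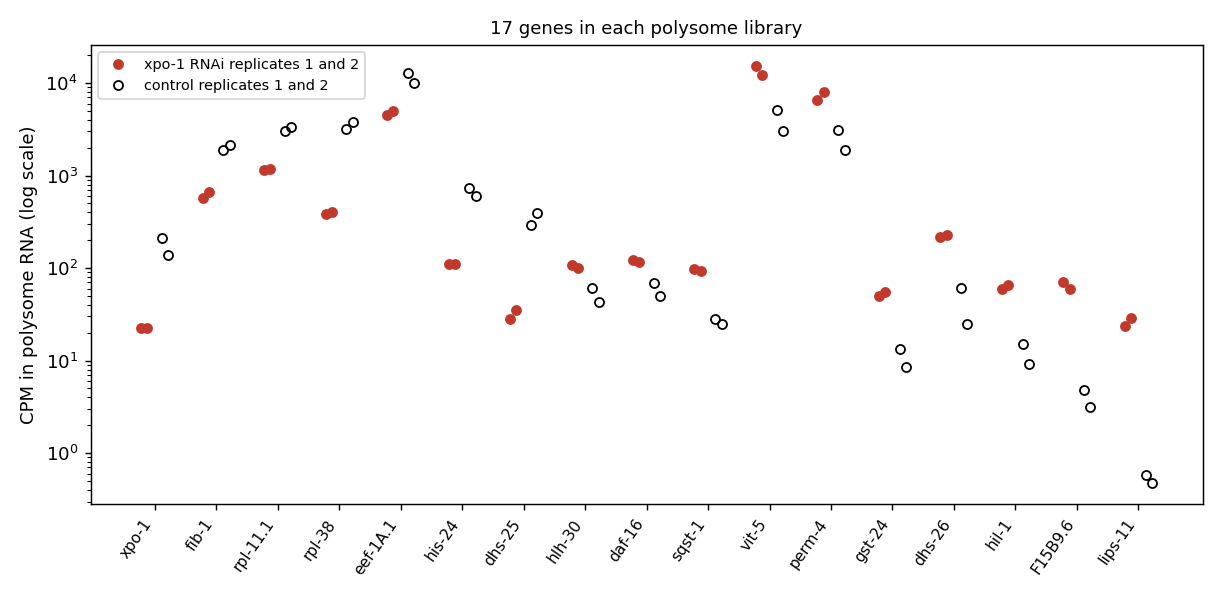
Level of 17 genes in each polysome library, in CPM on a log axis, with xpo-1 RNAi replicates as red points on the left of each gene and control replicates as open points on its right. The groups do not overlap in any of these genes. Levels are not per length and are read within a gene, from the 7 genes called lower (xpo-1 to dhs-25) to the 10 called higher (hlh-30 to lips-11).

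Neuronal gene lists had few lower calls, and their shares of higher calls were near or somewhat above the 15.5% of all genes. Of 87 neuropeptide genes 18 (20.7%) were called higher and 3 lower, with a median log2 fold change of 0.45. Of 43 genes of synaptic release and channels 6 (14%) were called higher and 1 lower, and of 28 chemoreceptor genes 7 (25%) were called higher and 2 lower. Only these 28 of 1316 chemoreceptor genes were tested, and a gene could enter through counts in 1 group alone. With at least 10 counts in every library their median was -0.10, against 0.39 in the main fit, and DESeq2 called 3 higher. Their 25% is therefore no firm sign of a rise. egl-3, the convertase that cuts neuropeptide precursors, had 84.0 and 75.2 CPM under xpo-1 RNAi, against 27.8 and 32.2 CPM in control (log2 fold change 1.41, SE 0.21, adjusted p 0.00141). nlp-51, a neuropeptide-like gene, had 18 and 16.21 CPM under xpo-1 RNAi, against 6.38 and 4.20 CPM in control (log2 fold change 1.69, SE 0.27, adjusted p 0.00209). nca-2, a sodium leak channel subunit, had 2.5 and 2.09 CPM under xpo-1 RNAi, against 0.527 and 0.610 CPM in control (log2 fold change 2.0, adjusted p 0.0092), a call lost without xpo-1 RNAi replicate 1 (adjusted p 0.0812). The groups were apart in these. Insulin-like peptides had 3 higher and 4 lower of 26. ins-34 had 2.55 and 2.94 CPM under xpo-1 RNAi, against 13.5 and 10.6 CPM in control (log2 fold change -2.13, adjusted p 0.000876). Of 5 neuronal marker genes egl-3 alone was called, and rab-3 had 9.87 and 7.97 CPM under xpo-1 RNAi, against 7.55 and 8.87 CPM in control, with the groups overlapping. The neuropeptide genes called higher numbered 2 without xpo-1 RNAi replicate 1, 5 without xpo-1 RNAi replicate 2 and 31 without control replicate 2.

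Cuticle genes lost a large part of their share. Collagens make up most of the worm cuticle, and many are transcribed in pulses at each molt. Of 122 collagens named col, 98 were called lower and 3 higher, with a median log2 fold change of -3.70, or -3.29 with genes at the floor set to 3 counts. Of 21 collagens of body shape, furrows and blisters 20 were called lower and 0 higher, with a median of -6.0, or -5.38 with genes at the floor set to it. col-63 (WBGene00000639, chromosome I, 8243695 to 8244963) had 4 and 3 counts under xpo-1 RNAi, against 1029 and 2015 counts in control. Its log2 fold change was -8.97 (SE 0.58, adjusted p 0.000151). dpy-13, a body-shape collagen, had 0.651 and 1.5 CPM under xpo-1 RNAi, against 195 and 357 CPM in control (log2 fold change -7.99, SE 0.48, adjusted p 0.000151). bli-2, a collagen of the adult cuticle, had 2 and 0 counts under xpo-1 RNAi, against 248 and 718 counts in control (adjusted p 0.000357). Control replicate 2 was the higher control library for each of these. Without it the median of the col genes was -2.67 and that of the body-shape collagens -4.69.

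Not all collagens were lost. col-140 had 1049 and 1172 CPM under xpo-1 RNAi, against 3871 and 4517 CPM in control (log2 fold change -1.92, SE 0.16, adjusted p 0.000203), and the col genes still took 1.86% and 1.79% of counts under xpo-1 RNAi, against 3.25% and 4.16% in control. sqt-3 had 54.1 and 59.9 CPM under xpo-1 RNAi, against 469 and 420 CPM in control (log2 fold change -2.96, SE 0.20, adjusted p 0.000151). col-43 rose, with 31.7 and 36.1 CPM under xpo-1 RNAi, against 12.4 and 5.62 CPM in control (log2 fold change 1.90, SE 0.34, adjusted p 0.00328). Both groups were apart in all of these. Of 85 molting regulators and effectors 30 were called lower and 11 higher (median -0.62). nekl-1, a kinase of the NIMA family, had 3.36 and 4.12 CPM under xpo-1 RNAi, against 0.468 and 0.406 CPM in control (log2 fold change 3.07, adjusted p 0.00112), while nas-27, an astacin protease, had 0.326 and 0.268 CPM under xpo-1 RNAi, against 1.93 and 5.22 CPM in control (log2 fold change -3.55, adjusted p 0.00285). Hedgehog-related genes, many of them made by the epidermis, had 23 lower and 14 higher of 58. wrt-4 had 0.109 and 0.214 CPM under xpo-1 RNAi, against 6.50 and 23.4 CPM in control (log2 fold change -6.47, adjusted p 0.000613), or -5.26 without control replicate 2, and ptc-1, a Patched receptor, had 417 and 407 CPM under xpo-1 RNAi, against 265 and 165 CPM in control (log2 fold change 0.94, adjusted p 0.0165). The call of ptc-1 was lost without either xpo-1 RNAi library (adjusted p 0.106 and 0.0885), and without xpo-1 RNAi replicate 1 the molting list had 11 lower and 2 higher calls and the hedgehog-related list 21 and 4. Without control replicate 2 the median of the molting list was -0.08. The hypodermal markers col-19, rol-6 and dpy-7 were all called lower.

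Major sperm protein genes were nearly gone from xpo-1 RNAi polysome RNA, while other sperm genes were mixed. In hermaphrodites sperm are made in the last larval stage and used up in adult life. All 28 tested major sperm proteins, which form the cytoskeleton of the crawling sperm, were called lower, with a median log2 fold change of -7.08. Together they took 0.00176% and 0.00212% of counts under xpo-1 RNAi, against 0.0725% and 0.357% in control. The control libraries thus differed several-fold from each other, and without control replicate 2 the median was -5.55. msp-51 (WBGene00003444, chromosome IV, 5294922 to 5295375) had 5 and 5 counts under xpo-1 RNAi, against 519 and 2202 counts in control (log2 fold change -8.34, SE 0.91, adjusted p 0.000461). These genes are near-identical copies, so their values are not independent and reads could not be assigned to a copy with certainty. Of 71 other sperm genes 43 were called lower and 9 higher (median -3.25, or -2.14 without control replicate 2). Their summed share was 0.104% and 0.0993% under xpo-1 RNAi, against 0.103% and 0.242% in control, so control replicate 1 lay between the xpo-1 RNAi libraries. ssp-19 had 0 and 0 counts under xpo-1 RNAi, against 66 and 220 counts in control, at least 58.1-fold lower against a floor of 3 counts per library. nspc-5, a short nematode-specific peptide placed in this list by its name, had 2.93 and 3.10 CPM under xpo-1 RNAi, against 1.29 and 0.474 CPM in control (log2 fold change 1.75, adjusted p 0.0239), a call lost without either xpo-1 RNAi library (adjusted p 0.108 and 0.119). Leaving out either xpo-1 RNAi library gave 37 lower calls and 1 higher call among the other sperm genes. The summed shares of both sperm lists and both collagen lists, and the level of wrt-4, were higher in control replicate 2 than in control replicate 1, and the part of larvae or of sperm left in the worms was not tested.

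Germ granule and Argonaute genes had 8 higher (19%, near the 15.5% of all genes) and 4 lower calls among 42 (median log2 fold change 0.33). wago-1, a germline Argonaute, had 524 and 627 CPM under xpo-1 RNAi, against 402 and 315 CPM in control (log2 fold change 0.68, SE 0.20, adjusted p 0.0277). alg-4, an Argonaute of spermatogenesis, had 0 and 3 counts under xpo-1 RNAi, against 43 and 152 counts in control (adjusted p 0.00203). The groups did not overlap in either gene. Oocyte RNA-binding proteins had 2 higher and 5 lower of 33. atx-2, the worm ataxin-2, had 330 and 276 CPM under xpo-1 RNAi, against 150.6 and 106 CPM in control (log2 fold change 1.24, SE 0.23, adjusted p 0.00394), and cey-2, a Y-box protein that packages stored messages, had 839 and 950 CPM under xpo-1 RNAi, against 2951 and 2367 CPM in control (log2 fold change -1.57, SE 0.18, adjusted p 0.000519). Early embryo markers were called lower in 24 of 47 and higher in 4 (median -1.61), although their summed share was 0.0802% and 0.0734% under xpo-1 RNAi, against 0.0565% and 0.0443% in control. skn-1, the maternal and stress factor, had 190 and 171 CPM under xpo-1 RNAi, against 117 and 64.4 CPM in control (log2 fold change 0.99, adjusted p 0.0256), and tbx-8, a T-box gene of the embryo, had 1.09 and 0.803 CPM under xpo-1 RNAi, against 4.21 and 3.93 CPM in control (log2 fold change -2.10, adjusted p 0.00341). DNA replication genes had 2 higher and 5 lower of 37, and meiosis genes 3 and 4 of 36. With library totals these were 15 and 0 for replication and 9 and 0 for meiosis, where 32.3% of all genes were called higher, and without control replicate 1 replication had 9 higher and 3 lower. The calls of wago-1 and skn-1 were lost without either xpo-1 RNAi library (adjusted p 0.0876 and 0.232, and 0.166 and 0.101), that of atx-2 without xpo-1 RNAi replicate 1 (0.0574), that of tbx-8 without replicate 2 (0.0538) and that of wago-1 also without control replicate 2 (log2 fold change 0.53). Leaving out control replicate 1 gave 20 higher calls among germ granule genes and 20 among oocyte RNA-binding proteins, and leaving out xpo-1 RNAi replicate 1 gave 1 and 0 and 15 lower calls among embryo markers.

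Histones divided by class. Core histones, which form the nucleosome and whose messages mostly lack a poly(A) tail, had 0 higher and 5 lower of 29. Linker histones, which bind the DNA between nucleosomes, had 6 lower and 1 higher of 9. his-24 had 109 and 109 CPM under xpo-1 RNAi, against 739 and 607 CPM in control (log2 fold change -2.62, SE 0.20, adjusted p 0.000151), and hil-7 had 10.1 and 8.88 CPM under xpo-1 RNAi, against 89.9 and 81.0 CPM in control (log2 fold change -3.17, SE 0.22, adjusted p 0.000151). hil-1 went the other way, with 59.6 and 66.2 CPM under xpo-1 RNAi, against 15.2 and 9.21 CPM in control (log2 fold change 2.36, SE 0.27, adjusted p 0.000536). These 3 calls were made with every library left out in turn, and the groups did not overlap. Core histone genes have near-identical copies and are reported with that limit.

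Muscle genes were lower more often than genes at large. Of 34 muscle myosin, actin and thin filament genes 15 (44.1%, against 22.4% of all genes) were called lower and 1 higher (median log2 fold change -0.50), and 6 were called lower with library totals. act-2, an actin gene with near-identical relatives, had 910 and 1061 CPM under xpo-1 RNAi, against 2295 and 1728 CPM in control (log2 fold change -1.03, SE 0.19, adjusted p 0.00382). unc-89, the giant obscurin of the sarcomere, had 63.3 and 37.2 CPM under xpo-1 RNAi, against 21.2 and 30.6 CPM in control (log2 fold change 0.96, SE 0.30, adjusted p 0.0342), a call lost without xpo-1 RNAi replicate 1 (log2 fold change 0.53, adjusted p 0.357). The muscle markers unc-54, unc-15 and myo-3 were not called. Basement membrane genes had 3 higher and 2 lower of 18. cle-1, the type XVIII collagen, had 49.4 and 49.2 CPM under xpo-1 RNAi, against 21.4 and 26.6 CPM in control (log2 fold change 1.04, adjusted p 0.00537, exons overlapping cdk-8), and dgn-1, a dystroglycan, had 40.4 and 40.2 CPM under xpo-1 RNAi, against 24.3 and 19.6 CPM in control (log2 fold change 0.87, adjusted p 0.0115). Both calls were lost without either xpo-1 RNAi library, with adjusted p of 0.0631 and 0.0578 for cle-1 and 0.112 and 0.102 for dgn-1. The muscle genes called lower numbered 9 without xpo-1 RNAi replicate 1 and 2 without replicate 2.

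Outside the lists, several genes with little or no annotation were among the largest changes. Y48G8AL.12 (WBGene00021690, chromosome I, 1218435 to 1219002) had 2 and 4 counts under xpo-1 RNAi, against 1060 and 2149 counts in control, the deepest fall among genes with a mean of at least 10 CPM (log2 fold change -9.26, SE 0.62, adjusted p 0.000151). F15B9.6 (WBGene00008850, chromosome V, 13014144 to 13016641) had 71.0 and 59.1 CPM under xpo-1 RNAi, against 4.80 and 3.12 CPM in control (log2 fold change 4.03, SE 0.28, adjusted p 0.000151). srlf-7 (WBGene00016594, chromosome IV, 7189191 to 7190331) had 1557 and 1193 CPM under xpo-1 RNAi, against 336 and 257 CPM in control (log2 fold change 2.21, SE 0.22, adjusted p 0.000304). The groups did not overlap in srlf-7, while Y48G8AL.12 and F15B9.6 were chosen only among genes whose groups do not overlap. Among further rises, scl-5, a secreted SCP-like protein, rose by 3.06 (adjusted p 0.000222), pqn-75, a protein rich in glutamine and asparagine, by 3.30 (adjusted p 0.000277), ugt-66, of the glucuronosyltransferases, by 2.82 (adjusted p 0.000235) and ttr-51, a transthyretin-related secreted protein, by 1.55 (adjusted p 0.000595, exons overlapping JC8.7) on the log2 scale. dct-7 and dct-8, named as genes under DAF-16 control, rose by 2.87 (adjusted p 0.000616) and 2.70 (adjusted p 0.00155).

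Calls followed coding length, taken from the longest coding transcript of each gene. Genes called higher had a median coding length of 1476 nt (2120 genes), genes called lower 741 nt (3075 genes) and all tested genes 1083 nt (13549 genes). Genes were put in 7 classes of rising length, with upper limits of 500, 1000, 1500, 2000, 3000 and 5000 nt and none for the longest. From the shortest class to the longest, the share called higher was 11.8%, 9.95%, 13.3%, 20.5%, 24.2%, 34% and 39.3%. The share called lower was 41.0%, 32.4%, 17.3%, 10.6%, 6.99%, 3.09% and 2.02% in the same order. Long genes were thus mostly higher or not called, and short genes were more often lower. Without the ribosomal, mitochondrial ribosomal, sperm and col genes the medians were 1479 nt for higher and 744 nt for lower calls. The median coding length of higher calls over 4-fold was 972 nt (265 genes), below that of all genes. Genes with a mean level over 1000 CPM (169 genes) were called lower in 72.8% and higher in 11.8%. Counts were not divided by length in any of these tests, and the part of RNA length in recovery from the gradient or in capture by the poly(A) tail was not tested.

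**Figure D5:**
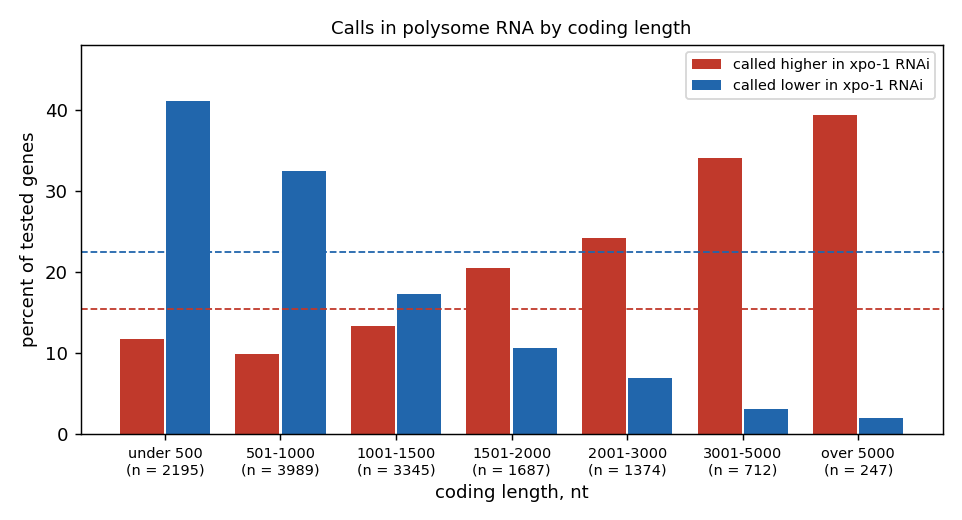
Percent of tested genes called higher (red, left bar) or lower (blue, right bar) in xpo-1 RNAi polysome RNA against control, by coding length in nucleotides, with the number of genes tested in each class. Dashed lines mark the share among all genes (15.5% and 22.4%). The share called lower falls from 41.0% of genes under 500 nt to 2.02% over 5000 nt, and the share called higher is 39.3% in the longest class.

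By chromosome, the share of tested genes called higher was 18.8% on chromosome V and 17.7% on X, and 12.5% to 15.2% on chromosomes I to IV. The share called lower was 15.5% on X and 19.2% on V, and 21.2% to 26.4% on I to IV. These are descriptions over genes, which are not independent replicates.

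A change in polysome RNA can follow a change in total RNA. In 1 fit over the 8 total and polysome libraries, 0 of 14900 genes passed as changing by more in either RNA kind (edgeR, smallest adjusted p 0.0972), although 2406 had an unadjusted p under 0.05. DESeq2 called 282 higher and 383 lower in the same comparison, but gave an adjusted p for 7100 genes only. Without control polysome replicate 1, edgeR called 458 higher and 266 lower. Each lysate gave both a total RNA and a polysome sample. With the lysate as a block, pairing libraries by replicate number, edgeR called 985 higher and 976 lower, and with the xpo-1 RNAi numbers crossed 1547 and 1439. Which total library belongs to which polysome library was not settled under xpo-1 RNAi, so the 0 of the unpaired fit does not show that the changes were alike. The median log2 fold change of large-subunit ribosomal proteins was -1.80 in polysome RNA and -0.96 in total RNA, that of the small subunit -1.78 and -1.02, and that of the respiratory chain -1.29 and -0.56. For the col genes both values were alike, at -3.70 and -3.23. For the proteasome they were -0.48 in polysome RNA and 0.12 in total RNA. No list was tested for this difference.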

How the data were processed

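The 4 polysome libraries and, for the comparison with total RNA, 4 total RNA libraries were read from gene counts. The authors deposited whole-number counts per gene, not normalized. The submitters' processing notes name Trimmomatic, STAR, featureCounts, Subread and the WBcel235 build. Strand setting and treatment of reads matching several genes are not given in the sources used here. Tables that the authors normalized with DESeq2 were not used, and every count column was matched to a sample.

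Genes with at least 10 counts in at least 2 polysome libraries were fitted in edgeR 4.0.16 (under R 4.3.3, with limma 3.58.1) after TMM scaling and compared by its quasi-likelihood F test, two-sided, with Benjamini-Hochberg adjustment over all tested genes. A gene was called where its change exceeded 1.5-fold at an adjusted p under 0.05. An interaction term over all 8 libraries compared polysome with total RNA. The steps were tested on simulated data with few changed genes, balanced in direction, and the same spread for every gene. That simulation does not test the scaling or the spread of the real libraries. Groups came from the sample labels. Nothing beyond the words biological replicates says how the samples were kept apart, so p-values measure the spread between these libraries. Polysome libraries held 15589628 to 19899590 counts.

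Gene lists and members were chosen with earlier results of these data known. Genes named came from xpo-1, genes the study examined and the called genes with the largest changes, by fold or in CPM. Those chosen by fold had a mean of at least 10 CPM and groups that do not overlap, so their separation was fixed by the choice. In each list the largest called rise and fall, the member of highest mean and a called member near the median were candidates too. Only part of all these candidates was named, by no stated rule, and some lists have no gene named. Marker genes ges-1, asp-1, elt-2 and rab-3 and others of the marker lists were named outside that rule after their values were seen. Replicate numbers were not taken as pairs, since deviations of same-numbered polysome libraries correlated at 0.0323. Alternatives were another size factor, library totals, DESeq2 1.42.0, other count filters, no fold threshold, a replicate block and each library left out. A crossed block was added after seeing the data. No promoter or other sequence was analysed here.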

Additional observations from a re-analysis of the deposited data

Results flagged for a closer look

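In 7 of 118 genes named here, xpo-1 RNAi and control libraries did not overlap in either RNA kind, and the directions were opposite. Among all 13940 genes, 341 were above control in polysome RNA and below it in total RNA, and 432 the reverse. The share among the named genes was near that among all genes. The polysome change minus the total RNA change was 1.418 for hlh-30, 1.335 for dgn-1 and 1.083 for wago-1 on the log2 scale, with polysome RNA higher and total RNA lower under xpo-1 RNAi. It was -1.227 for elo-1, -0.977 for dod-18, -0.349 for rpn-6.1 and -0.333 for rpn-10, with polysome RNA lower and total RNA higher. The edgeR interaction test without lysate pairing called none of them, which does not show that their changes were alike in the 2 RNA kinds. Its adjusted p was 0.0972 for hlh-30 and dgn-1, 0.0986 for elo-1, 0.11 for wago-1, 0.127 for dod-18, 0.491 for rpn-6.1 and 0.536 for rpn-10. Groups of 2 libraries were too small for a check of single outlying samples.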

How the results depend on the processing

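Library totals gave 4503 higher and 2209 lower calls, against 2161 and 3127 with TMM. DESeq2 size factors, DESeq2, other count filters and no fold threshold gave 2004 to 2234 higher and 2515 to 3383 lower calls. Leaving out each library gave 640 to 3255 higher and 1640 to 3765 lower calls. No called gene changed sign in any of these, which the choice of called genes from the same libraries made likely. The interaction gave 0 calls with edgeR over 14900 genes. DESeq2, with an adjusted p for 7100 genes, gave 282 higher and 383 lower. In edgeR there were 275 and 301 with no count filter and 303 and 120 with at least 10 counts in every library. With each library left out it gave 0 to 458 higher and 0 to 266 lower calls. The cause of these differences was not tested.

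With the replicate number as a block the polysome comparison gave 2647 higher and 3433 lower calls. A lysate block in the interaction gave 985 and 976 calls, and 1547 and 1439 with the xpo-1 RNAi numbers crossed, a pairing added after seeing the data because replicate differences of total and polysome RNA correlated at 0.707 in control and -0.208 under xpo-1 RNAi.

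With library totals the log2 fold change of rpn-6.1 was 0.178 and of rpn-10 0.219, and list medians turned positive for aminoacyl-tRNA synthetases (0.249), nucleolar genes (0.044), lysosomal proteases (0.35), F-box genes (0.151), other chaperones (0.17), glutathione S-transferases (0.296), meiosis genes (0.305) and core histones (0.186). With at least 10 counts in every library the medians were 0.04 for F-box genes, -0.102 for chemoreceptors, 0.043 for homeobox genes and -0.061 for basement membrane genes. Leaving out each library turned some values near 0. The ranges were -0.015 to 0.229 for npp-2, -0.13 to 0.319 for cathepsins and other lysosomal proteases, -0.282 to 0.215 for glutathione S-transferases, -0.068 to 0.116 for antimicrobial peptides and lysozymes, -0.374 to 0.379 for basement membrane genes, -0.029 to 0.71 for oocyte and maternal RNA-binding proteins, -0.146 to 0.318 for DNA replication genes and -0.229 to 0.134 for meiosis genes.

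Median coding length ranged over the alternatives as 1126.5 to 1569 nt for higher and 661.5 to 765 nt for lower calls. With 2 libraries per group, small changes and genes near the floor of 3 counts were not detectable with certainty.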

Other observations

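Gene families grouped by the letters of their names, and chosen after their values were seen, held further sets with calls mostly in one direction in polysome RNA. All 8 tested mrp genes, transporters of the ABC family, were called higher under xpo-1 RNAi, with a median log2 fold change of 1.492. Of 8 scl genes, which encode secreted SCP-like proteins, 7 were called higher and 1 lower, with a median of 2.562. Of 19 acs genes, for acyl-CoA synthetases, 11 were called higher and 3 lower (median 0.801). All 11 abu genes were called lower (median -4.872), as were all 8 cct genes, which encode the cytosolic chaperonin (median -0.877). Of 65 fbxb genes, an F-box family, 50 were called lower and 0 higher (median -2.254). The related fbxa genes differed, with 13 called higher and 3 lower of 85 (median 0.36). Of transcription factor families, tbx had 0 higher and 6 lower of 10 and hlh 2 higher and 4 lower of 11. Members of a family can share sequence, so their values are not independent, and no test was run on these sets.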
